A study of Trametes versicolor with 17 samples.

Results

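CCP1 of the white-rot fungus Trametes versicolor is the single gene described here, 1 of 14296 gene models counted in 17 mRNA libraries. It was taken from the count tables by its identifier, gene_2592. Its symbol and its locus tag, TRAVEDRAFT_26601, come from RefSeq's table of Trametes versicolor genes (assembly version 1.0), in which a gene with the same start and end has both. The gene was chosen by its measured 3-day counts, which were lower with the salad dressing waste phase than in each of the other 3 groups of that time, so those 3 differences are given as a description without a test. The libraries came from mycelial pellets of 1 strain, labelled ASM 8036, shaken at 135 rpm and 28 °C in liquid medium of 2% malt extract, in all 6 groups. The 6 groups were control pellets at 3 days (n = 3), pellets held for 3 days with a 5% addition of the aqueous phase from hydrothermal liquefaction of food waste (FW, n = 3), salad dressing waste (SD, n = 3) or algal biomass (AB, n = 3), control pellets at 7 days (n = 2), and pellets held for 7 days with 5% AB (n = 3). Hydrothermal liquefaction treats wet waste with hot compressed water, and the aqueous phase is the watery by-product left beside the oil. The 3-day libraries form the batch labelled main and the 7-day libraries the batch labelled preliminary, so day and batch cannot be told apart.

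Cytochrome c peroxidase is a heme enzyme, studied mainly in the yeast Saccharomyces cerevisiae, where it sits in the space between the mitochondrial membranes. It reduces hydrogen peroxide to water with electrons taken from cytochrome c, the carrier of the respiratory chain. It is an intracellular relative of the secreted peroxidases with which white-rot fungi attack lignin, namely the manganese peroxidases (MnP), lignin peroxidases (LiP) and versatile peroxidases (VP). The role of CCP1 in Trametes versicolor is taken here from its symbol alone.

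The CCP1 model lies on the plus strand of scaffold 2, from 2690043 to 2691900, in the coordinates of the count tables. Its 6 exons add up to 1471 bases within a span of 1858, the longest being the last, of 401 bases, and the first, of 345. The 5 introns are between 56 and 138 bases long. The model overlapped 0 other models, so no count of it was shared with an overlapping gene. The main libraries held 15459249 to 18770043 counts each and the preliminary ones 27654678 to 35223283, of which CCP1 had between 496 and 6443.

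At 3 days CCP1 stood at 168 ± 50.5 CPM (read counts relative to library size, scaled by TMM within the batch; SD, n = 3) in the controls, 148 ± 39.3 under FW, 77 ± 19.9 under SD and 198 ± 34.0 under AB. The 3 control libraries held 186, 111 and 207 CPM (replicates 1 to 3), and the FW libraries held 150, 108 and 186 CPM. The SD libraries held 68.8, 62.5 and 99.7 CPM, and the AB libraries 167, 234 and 194 CPM. With TMM scaling every SD library lay below every library of the other 3 groups at 3 days, although the gap was narrow. The highest SD library (99.7 CPM) was followed by the lowest FW library (108 CPM) and the lowest control library (111 CPM). Without scaling the ranges overlapped, with SD replicate 3 at 109.1 CPM, control replicate 2 at 108.7 and FW replicate 2 at 106.2. The control, FW and AB ranges overlapped one another. In bulk pellets, fewer cells that express a gene and less RNA per cell cannot be told apart. Counting error was small beside the spread between libraries. The 1221 counts of the lowest SD library gave a 95% Poisson interval of 59.1 to 66.1 CPM, which covers counting error only.

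**Figure D1:**
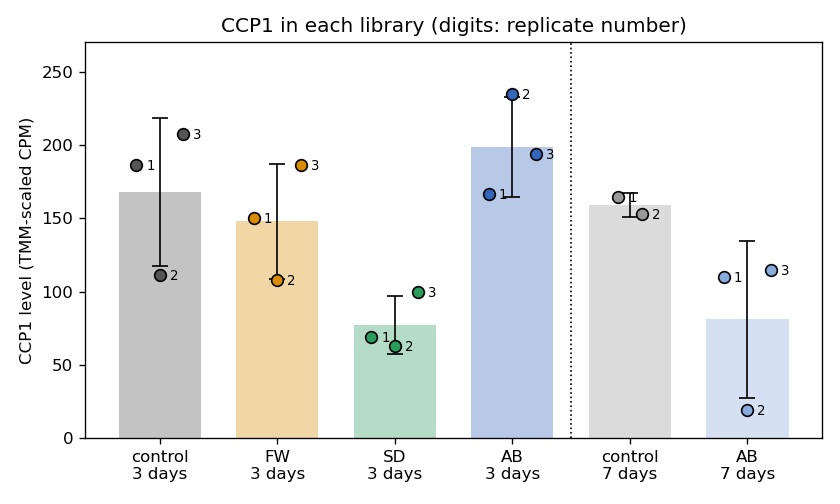
CCP1 level (TMM-scaled CPM, linear axis from 0) in each of the 17 libraries, with group means as bars and SD as error bars; digits are replicate numbers and the dotted line separates the 3-day from the 7-day batch. With this scaling the 3 SD libraries sit between 62.5 and 99.7 CPM, below all other 3-day libraries. AB replicate 2 at 7 days is the lowest point at 19.2 CPM.

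In order of level at 3 days, AB came first, then control, FW and SD. The fitted log2 fold change of SD was -1.13 against control (SE 0.26; 0.458-fold), -0.94 against FW (SE 0.26; 0.520-fold) and -1.37 against AB (SE 0.26; 0.388-fold). These are the differences for which the gene was chosen. In the same contrasts 21.1% (10.3% higher and 10.9% lower), 25.4% (12.1% and 13.3%) and 54.2% (28.3% and 25.9%) of 10838 tested genes were called at an adjusted p of 0.05. The value of CCP1 against control was below that of all but 2.86% of them. TMM scaled the SD libraries by factors of 1.07 to 1.12 and the other 9 by 0.930 to 1.00. With total counts in place of TMM the median gene moved to 0.17, 0.19 and 0.22 in the 3 contrasts, the share of calls that were higher from 48.5% to 73.7%, from 47.6% to 71.3% and from 52.2% to 64.8%, and CCP1 to -0.95, -0.76 and -1.19. Relative to the median gene CCP1 then lay at -1.12, -0.95 and -1.41, against -1.12, -0.96 and -1.41 with TMM.

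The differences among AB, control and FW did not pass the test. The FW to control difference was -0.19 on the log2 scale (SE 0.26, adjusted p = 0.583 by edgeR's quasi-likelihood test with Benjamini-Hochberg adjustment), and the 95% interval of the ratio ran from 0.600 to 1.29. AB against control gave 0.24 (SE 0.26, adjusted p = 0.435), with a ratio between 0.804 and 1.73. FW against AB gave -0.42 (SE 0.26, adjusted p = 0.205), with a ratio between 0.508 and 1.09. CCP1 was not called in contrasts where 45.8% (22.4% higher and 23.4% lower), 62.4% (29.8% and 32.6%) and 42.1% (21.9% and 20.2%) of 10838 genes were. The FW, AB and SD comparisons with control share the control libraries. CCP1 was lower under FW than in the control of the same replicate number for all 3 numbers, and with the number as a block over these 6 libraries the FW difference was -0.16 (adjusted p = 0.342), a fit chosen after seeing the data. Without FW replicate 2 the sign of the FW difference turned (0.05, adjusted p = 0.894; 0.182 to 0.987 over all alternatives). Without control replicate 2 the AB difference was 0.01 (adjusted p = 0.971; 0.228 to 0.971 over all alternatives).

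**Figure D2:**
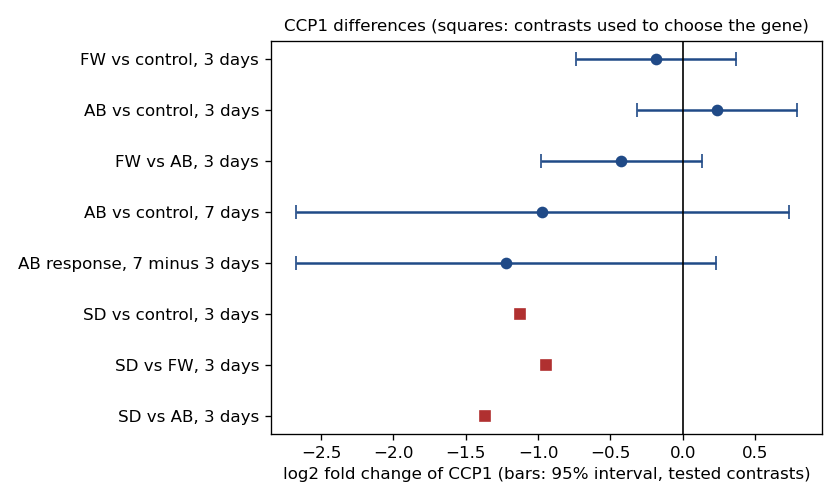
Log2 fold changes of CCP1 (x axis) for 8 comparisons; circles with 95% intervals are the 5 comparisons that were tested and squares the 3 that chose the gene. Every circle's interval crosses 0, and the 3 SD differences lie between -1.37 and -0.94.

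After 7 days CCP1 stood at 159 ± 8.20 CPM (SD, n = 2) in the controls and 81.1 ± 53.7 CPM (SD, n = 3) under AB. The controls held 165 and 153 CPM (replicates 1 and 2). TMM scaled them by unequal factors, 1.24 and 0.861, so their small spread depends on the scaling. Without scaling the gap between the controls was wider, with replicate 1 still the higher, and every AB library still lay below both. The AB libraries held 110, 19.2 and 115 CPM. All AB libraries lay below both controls, but replicate 2 lay far below the other AB libraries, and the highest AB library held 5.97 times the lowest. The log2 fold change was -0.97 (SE 0.71, adjusted p = 0.488, edgeR's quasi-likelihood test), with a 95% interval of the ratio from 0.157 to 1.66, so CCP1 was not called. In this comparison 3.28% of 10192 genes were called (0.873% higher and 2.4% lower), and leaving out 1 library moved that count from 334 to between 0 (without control replicate 2; 1661 at an unadjusted p under 0.05) and 689 (without AB replicate 2). Without AB replicate 2 the value was -0.51 (adjusted p = 0.230; 0.230 to 0.722 over the alternatives).

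AB replicate 2 stood apart in many genes, not in CCP1 alone. Of 5886 genes averaging 10 CPM or more at 7 days, 26.7% differed more than 2-fold between this library and the mean of the other AB libraries, against 10.01% and 11.4% for AB replicates 1 and 3 and 18.3% between the controls. CCP1 was among the 2.07% of genes that were lowest in it by this measure, at -2.54 on the log2 scale. Its 496 counts put CCP1 above 67.9% of all models per kilobase in that library, where in the other 16 libraries it was above 80.9% to 93.5%.

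The AB responses at 7 and 3 days differed by -1.22 on the log2 scale (SE 0.68), which was not called (adjusted p = 0.200, edgeR's quasi-likelihood test over all 17 libraries; 27.9% of 11057 genes were called, 13.9% higher and 14.1% lower). AB against control was 0.24 at 3 days and -0.97 at 7 days. The difference was -0.73 without AB replicate 2 of day 7 (adjusted p = 0.172). With the replicate number as a block it was -2.10 (adjusted p = 0.0249; 0.0249 to 0.335 over the alternatives), although the numbers were not shown to pair these samples.

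CCP1 varied more between replicates than most genes averaging 10 CPM or more. Its pooled within-group SD at 3 days was 0.38 on the log2 CPM scale, larger than that of 88.9% of 6662 such genes, whose median was 0.20. At 7 days it was 1.2, against a median of 0.41 over 5886 genes. The highest control library held 1.86 times the lowest, the highest FW library 1.73 times, the highest SD library 1.59 times and the highest AB library 1.41 times. Replicate 2 was the lowest library in the control, FW and SD groups at 3 days, and the highest in the AB group.

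To place CCP1 beside the other annotated heme peroxidases, levels were divided by exon length. The list held 31 genes by symbol: 13 MnP, 10 LiP and 3 VP genes, 2 dye-decolorising peroxidases (DyP), which belong to a separate superfamily named for dye substrates, and 3 heme-thiolate peroxidases (HTP), which carry a cysteine ligand on the heme. Reads of near-identical members of this list could be split between copies, so their values are uncertain to that extent. In the 3-day controls CCP1 stood at 114 ± 34.3 CPM per kb (SD, n = 3) and only HTP3 (1982 ± 93.6), VP2 (758 ± 198) and DyP1 (213 ± 15.3 CPM per kb) had higher group means. The median of the list was 4.77 CPM per kb.

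The place of CCP1 in this order differed between the groups, and its low SD level is the one that chose the gene. Under SD, 8 genes of the list had higher means than CCP1 (52.3 ± 13.5 CPM per kb), against 5 under FW (101 ± 26.7) and 2 under AB (135 ± 23.1). DyP2 was only just above it under SD, at 53.7 ± 21.2 CPM per kb. By library CCP1 ranked 4 to 5 in the 3-day controls, 6 to 7 under FW, 8 to 9 under SD and 2 to 3 under AB. Those above it under SD included LiP2, at 79.0 ± 94.3 CPM per kb, HTP1 at 130 ± 60.2 and MnP3s at 241 ± 62.5. Under AB the genes above CCP1 were MnP10s and MnP1s, at 358 ± 230 and 160 ± 93.2 CPM per kb. HTP3, VP2 and DyP1 were at 39.6, 2.47 and 20.7 CPM per kb there. At 7 days 2 genes were above CCP1 in either group. In the controls, with CCP1 at 108 ± 5.58 CPM per kb, they were VP2 at 255 ± 10.1 and HTP1 at 124 ± 35. Under AB, with CCP1 at 55.1 ± 36.5, they were MnP10s at 152 ± 120 and MnP1s, only just above it, at 56.1 ± 74.3. In the AB libraries of day 7 CCP1 ranked 3, 3 and 2 (replicates 1 to 3).

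CCP1 made up 3.32 ± 0.927% of the summed CPM per kb of the 32 annotated heme peroxidases in the controls (SD, n = 3), 1.96 ± 0.337% under FW, 1.71 ± 0.269% under SD and 16.5 ± 4.38% under AB. The 3 AB libraries, at 12.8% to 21.3%, lay above all others of that time, whose highest share was 3.98%. The sum over the other 31 genes was 3219 ± 173 unscaled CPM per kb in the controls and 721 ± 324 under AB, while CCP1 itself was not called between these groups. The shares under FW (1.73% to 2.34%) and SD (1.48% to 2.01%) overlapped. The sum of the other 31 was 5079 ± 1819 CPM per kb under FW and 3260 ± 322 under SD. At 7 days the share was 14.6% and 14.9% in the controls and 7.85% to 31.3% under AB, where the ranges overlapped.

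**Figure D3:**
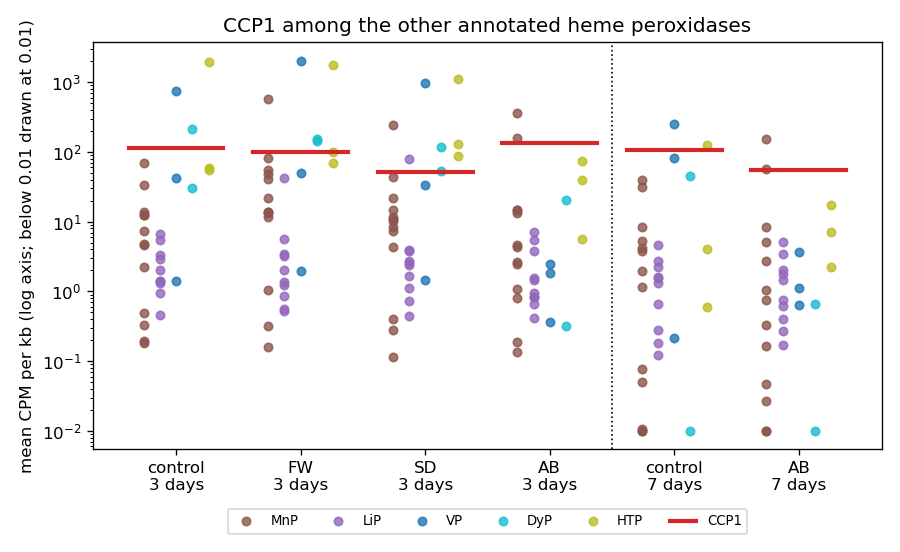
Mean CPM per kb (log axis; values below 0.01 are drawn at 0.01) of CCP1, as a red line, and of the 31 other annotated heme peroxidases, as points by family, in the 6 groups. CCP1 has 3 genes above it in the 3-day controls, 5 under FW, 8 under SD and 2 under AB.

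The other listed peroxidases moved in both directions at 3 days. Under FW 14 of 29 tested members were higher and 3 lower (58.6% called, against 45.8% of all genes), with a median log2 fold change of 0.51 against -0.01 over all tested genes. Among called members averaging 10 CPM or more, MnP13 had the largest rise (6.78, adjusted p = 3.22e-06; 7.52 without control replicate 3), from 0.498 ± 0.355 to 56.0 ± 30.2 CPM per kb. It met that floor only through FW, at 40.0 CPM against 0.356 in control, 3.13 under SD and 1.74 under AB. Its place as the largest rise is therefore a description. DyP1 was the only member called lower at that floor (-0.58, adjusted p = 0.0312). Its call was lost without control replicate 1 or 3 or FW replicate 1 or 2 (adjusted p 0.0672 to 0.167). LiP8 (-1.11, adjusted p = 0.00641) and LiP12 (-0.71, adjusted p = 0.0294) fell more but averaged under 10 CPM. The count of 3 became 1 without control replicate 3 or FW replicate 1. Under SD 8 were higher and 2 lower (34.5% called, against 21.1%), with a median of 0.30 against -0.01. The 8 became 4 without control replicate 1 and 5 without control replicate 3 or SD replicate 2. Of the called members, LiP2 had the largest rise (3.58, adjusted p = 0.00653) and DyP1 the largest fall (-0.87, adjusted p = 0.00942). Without SD replicate 2 the LiP2 value was 1.92 (adjusted p = 0.0199; 0.000208 to 0.0282 over the alternatives). As a description, since that contrast was used to choose CCP1, 0 of the 29 had a lower value than CCP1 in it. The nearest was LiP5 at -1.09, which stood at 0.948 CPM per kb in the controls.

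Under AB at 3 days 6 members were higher and 13 lower (65.5% called, against 62.4%), with a median of -1.10 against -0.06. Of the called members, MnP1s rose most (5.07, adjusted p = 2.97e-07) and VP2 fell most (-8.26, adjusted p = 8.42e-09). With a log2 fold change of 0.24, CCP1 was above 19 of the 29. At 7 days 0 of 22 tested members were higher and 2 lower, or 9.09% against 3.28% of all genes, with a median of -0.38 against -0.01. At an unadjusted p under 0.05 edgeR put 3 higher, and DESeq2 called 3 higher after adjustment. The lower pair was the versatile peroxidases VP2 and VP3at, and VP3at fell most (-6.20, adjusted p = 0.0273, edgeR's quasi-likelihood test), from 83.3 ± 90.6 CPM per kb (SD, n = 2) to 1.13 ± 0.444 (SD, n = 3). VP3at met the floor of 10 CPM only through the controls, at 114 CPM against 1.55 under AB. The VP3at call was lost without either control or without AB replicate 3 (adjusted p 0.0569 to 0.0628) and with the replicate block (-5.41, adjusted p = 0.0959). Without control replicate 1 its value was -4.06, and without control replicate 2 it was -7.01. The count of 2 became 0 without control replicate 2 and 1 without control replicate 1.

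On the scaffold, the nearest model before CCP1, TRAVEDRAFT_88199, ended 5828 bases away, while TRAVEDRAFT_113328 began 742 bases after it on the minus strand. None of the 3 models on either side has a symbol, and their functions are not described here. Of these 6 models, 1 was higher and 4 were lower under FW than in control (45.8% of all genes were called), 1 was higher and 1 lower under SD (21.1%), and 1 was higher and 3 lower under AB (62.4%). At 7 days 1 was lower under AB (3.28%). Their median log2 fold changes were -0.48, -0.04, -0.30 and -0.46 in these 4 comparisons, against -0.01, -0.01, -0.06 and -0.01 over all tested genes.

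The neighbours did not share one pattern with CCP1. TRAVEDRAFT_88199 (scaffold 2, 2683696 to 2684214, 1 exon) rose from 6.89 ± 3.61 CPM in control to 26.4 ± 6.46 under FW (log2 fold change 1.95, SE 0.31, adjusted p = 0.000265) and 40.9 ± 3.09 under AB (2.58, SE 0.32, adjusted p = 1.21e-05). It also rose under SD, to 14.0 ± 3.90 CPM (1.03, adjusted p = 0.0317), a call that was lost without control replicate 1 or 3 or SD replicate 2 (adjusted p 0.115 to 0.128), or with the compared groups fitted alone (0.0769). Under SD this neighbour was higher than in control and CCP1 lower.

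On the other side, TRAVEDRAFT_113328 (2692643 to 2693245) fell under all 3 phases, from 35.8 ± 1.69 CPM in control to 22.4 ± 7.98 under FW, 21.9 ± 1.56 under SD and 23.8 ± 1.01 under AB, with log2 fold changes of -0.68, -0.71 and -0.59 (adjusted p = 0.0168, 0.0280 and 0.0242). The SD call was lost when any 1 of the 6 SD and control libraries was left out (adjusted p 0.0556 to 0.104) or with total counts (0.0680), the FW call with the compared groups fitted alone (0.0619), and the AB call without control replicate 2 or 3 or AB replicate 1 or 3 (adjusted p 0.0540 to 0.0658). At 7 days the AB value was -1.44, with an adjusted p of 0.0478 that rose to between 0.152 and 0.181 without AB replicate 1 or 3 or either control, to 0.369 with the replicate block, to 0.0504 with RLE scaling, to 0.0642 with total counts and to 0.0530 with no filter. TRAVEDRAFT_141987 (2694595 to 2695770) fell from 49.3 ± 5.08 to 21.2 ± 2.62 CPM under AB (-1.22, SE 0.16, adjusted p = 2.42e-05), a comparison in which CCP1 was not called. Under FW its value was -0.52 (adjusted p = 0.0173), and this call was lost without control replicate 2 or FW replicate 2 (adjusted p = 0.0536 and 0.117).

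TRAVEDRAFT_34426 (2693548 to 2693909), the most abundant of the 6 at 220 ± 18.9 CPM in control, fell to 162 ± 18.4 under FW (-0.44, adjusted p = 0.00866; 0.0565 and 0.0571 without FW replicate 1 or 2). TRAVEDRAFT_43554 (2680818 to 2683158) was scarce, at 2.05 ± 0.362 CPM in control, with log2 fold changes of -0.92 under FW (adjusted p = 0.0257) and -1.16 under AB (adjusted p = 0.00589). Its FW call was lost without control replicate 1 or 3 or FW replicate 1 or 3 (adjusted p 0.0622 to 0.0997), and with these 2 groups fitted alone, without the replicate block (0.0558) or with it (0.0577). TRAVEDRAFT_56322 (2675048 to 2679466) was at 14.1, 14.5, 17.5 and 14.0 CPM in control, FW, SD and AB and was not called in any of the 3 comparisons with control at 3 days.

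**Figure D4:**
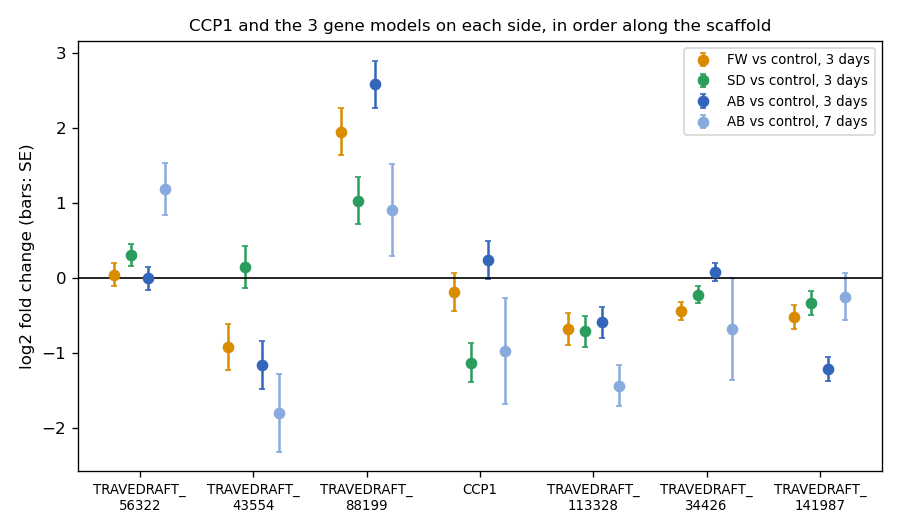
Log2 fold change (y axis, bars are SE) of CCP1 and of the 3 gene models on each side, in their order along scaffold 2, for FW, SD and AB against control at 3 days and AB against control at 7 days. TRAVEDRAFT_88199 is above 0 and TRAVEDRAFT_113328 below 0 in all 4, while CCP1 is lowest under SD, at -1.13.

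The gene models whose pattern was most like that of CCP1 were found by the root mean square (RMS) difference of log2 CPM, centred on each gene's mean, over the 12 libraries at 3 days. Of 6661 models averaging 10 CPM or more, the 5 closest were TRAVEDRAFT_135477 (RMS difference 0.23), TRAVEDRAFT_166644 (0.30), TRAVEDRAFT_172170 (0.31), TRAVEDRAFT_113718 (0.32) and TRAVEDRAFT_42537 (0.33). A gene with no change at all would have an RMS difference of 0.60, and the median over all models was 0.71. Closer to CCP1 than such an unchanged gene were 1781 of the 6661 models, so the 5 are the nearest of many. The 5 lie on scaffolds 13, 5, 9, 2 and 1, and none carries a symbol.

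TRAVEDRAFT_135477 (scaffold 13, 1414935 to 1415862, 6 exons) held 399, 316 and 589 CPM in the 3 control libraries, 383, 363 and 458 CPM under FW, 266, 205 and 259 CPM under SD, and 497, 558 and 540 CPM under AB. As in CCP1, its SD libraries lay below all others and replicate 2 was lowest in control, FW and SD. TRAVEDRAFT_113718 (scaffold 2, 1440632 to 1441772) held 45.2 ± 7.25, 43.3 ± 4.89, 24.8 ± 2.02 and 46.7 ± 2.03 CPM in control, FW, SD and AB. Relative to its level, its spread within each group was smaller than that of CCP1. These values chose the 5 models and are a description.

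The 7-day libraries were not used in that choice, and 0 of the 5 models was called there under AB against control by edgeR's quasi-likelihood test or by DESeq2. At an unadjusted p under 0.05 the count was 1 with either tool. Their log2 fold changes were -0.67, 0.38, -1.0, -0.83 and 1.62 in the order above, with adjusted p-values of 0.637, 0.671, 0.309, 0.231 and 0.295, beside -0.97 for CCP1. In AB replicate 2 TRAVEDRAFT_135477 was at 109 CPM, the lowest of its AB libraries, which reached 549 CPM.

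**Figure D5:**
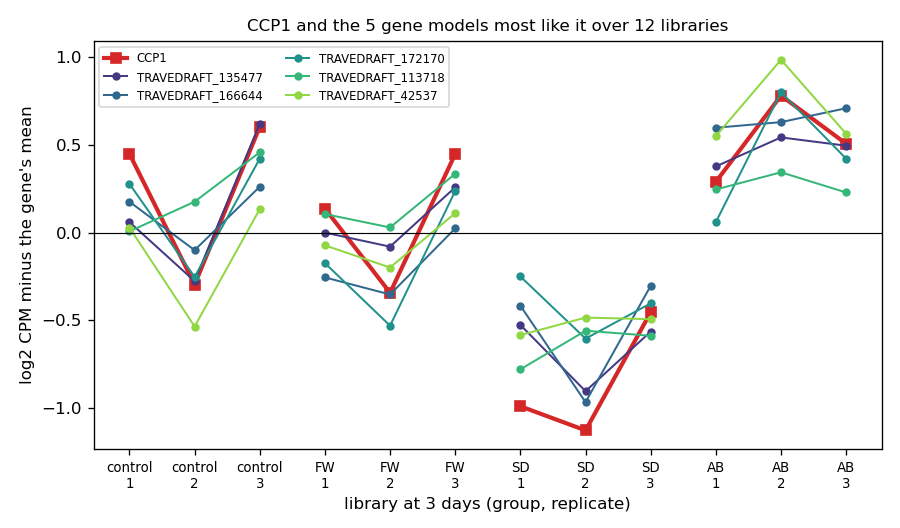
Log2 CPM minus each gene's mean over the 12 libraries at 3 days (y axis) for CCP1, in red with squares, and the 5 gene models most like it; lines join the libraries of a group and carry no order. All 6 genes are below their mean in the 3 SD libraries and above it in the 3 AB libraries.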

How the data were processed

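Poly(A) mRNA of 17 libraries was counted per gene model. The authors deposited raw counts, 1 table for each batch. Per the submitters' processing notes, HISAT2 and featureCounts were used; their versions, the build and the strand setting are not stated in what was used here. Without a stated strand setting, antisense reads could be counted with a gene. Replicates are labelled biological, with nothing on separate cultures, so p-values measure the spread between these samples.

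Counts were normalised with TMM and tested with edgeR 4.0.16 (R 4.3.3): filterByExpr, quasi-likelihood F test, Benjamini-Hochberg adjustment over all genes tested in the fit, threshold 0.05. The fits held the 12 main libraries, the 5 preliminary ones, or all 17 for the difference between times. Biological variation between replicates (BCV) came to 0.188 in the main fit and 0.455 in the preliminary one. Standard errors are the log2 fold change divided by the root of F. Levels are CPM, and patterns used log2(CPM + 0.125). Every adjusted p comes from edgeR unless DESeq2 1.42.0 or limma 3.58.1 is named. Ranges and counts over all the alternatives also take in the DESeq2 and limma fits. In simulated data the 7-day fit missed the changes put in and the fit of all 17 libraries missed many. The 3-day fit missed part of the 2-fold changes. These changes were 2-fold or 4-fold and in few genes, so larger or more widespread changes were not simulated. An uncalled value from any of these fits does not show that a gene was unchanged.

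The gene, its comparisons and the peroxidase list were chosen with earlier results of these data known. Named genes are CCP1, 3 models on each side, the 5 models most alike, and, from the list of symbols starting LiP, MnP, VP, DyP or HTP, the largest called rise and fall at a mean of at least 10 CPM in each comparison with control. LiP5 was named after its values were seen, as were peroxidases placed above CCP1. Gene lists by product and a comparison of proteins were not made, since no product or protein table was used here. Alternatives were other scalings, filters, tools and sample sets, thinning to the smallest total, a replicate block, and leaving out each library. Same-numbered libraries correlated over 0.1 in all 3 pairs of control and FW (0.11, 0.38 and 0.40; other numbers -0.37 to 0.09), so the numbers may pair those groups, though the labels name no shared source. In no other pair of groups did every pair pass 0.1.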

Additional observations from a re-analysis of the deposited data

Results flagged for a closer look

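CCP1 itself met no criterion for a closer look, and no group held enough libraries to test for an outlying sample. The AB response, as a log2 fold change against its own control, was compared between 7 and 3 days by edgeR's interaction test. The genes checked were the 6 neighbours, the 5 models most like CCP1, and MnP13, DyP1, LiP2, MnP1s, VP2 and VP3at. Of these, 5 were called, a share near the 27.9% called over all 11057 genes. HTP3 (6.44, adjusted p = 3.28e-06), HTP1 (-3.18, adjusted p = 0.0149) and MnP10s (-2.45, adjusted p = 0.0240), named for their level beside CCP1, were called as well. Day and batch cannot be told apart in any of them.

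VP2 was -8.26 at 3 days and -6.10 at 7 days, a difference of 2.14 (adjusted p = 0.0150; 0.0502 without control replicate 2 of day 7). DyP1 was -3.36 and -6.11, a difference of -2.77 (adjusted p = 0.0451), and -0.99 without control replicate 2 of day 7 (adjusted p = 0.457). It was -3.55 without control replicate 1 and -2.17 without AB replicate 3 of day 7. The DyP1 call was lost in 14 of 26 alternatives. Among the neighbours of CCP1, TRAVEDRAFT_56322 was -0.01 and 1.18, a difference of 1.17 (adjusted p = 0.00514) that was called in all 26 alternatives. TRAVEDRAFT_141987 was -1.22 and -0.25, a difference of 0.96 (adjusted p = 0.0228), lost in 4 alternatives, with 0.68 without control replicate 2 of day 7 (adjusted p = 0.109). TRAVEDRAFT_113718, one of the models most like CCP1, was 0.05 and -0.83, a difference of -0.89 (adjusted p = 0.0300), lost in 6 alternatives, with -0.63 without control replicate 2 of day 7 (adjusted p = 0.146).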

How the results depend on the processing

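Over 21 alternatives the SD differences of CCP1 were -1.35 to -0.95 against control, -1.20 to -0.74 against FW and -1.60 to -1.19 against AB. These alternatives refit the counts that chose the gene, so the kept sign is a description and not a test. With total counts the SD libraries overlapped the control and FW libraries. AB against control ran from 0.01 to 0.42, FW against AB from -0.62 to -0.22 and AB at 7 days from -1.79 (replicate block) to -0.51, none of them called. Leaving out 1 library at a time gave -0.41 to 0.052 for FW against control, with the sign turning to 0.052 without FW replicate 2. For the AB response at 7 minus 3 days it gave -1.56 to -0.73.

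With the replicate number as a block the 7 minus 3 day difference was -2.10 and called (adjusted p = 0.0249; 0.0249 to 0.335 over 26 alternatives), and 91 genes in place of 334 were called at 7 days. With the block over FW and control alone, added after seeing the data, CCP1 was at -0.16, 4980 genes in place of 4963 were called, and TRAVEDRAFT_43554 was the only named call against control that was lost. Correlations of same-numbered libraries ran from -0.35 to 0.53, over 0.1 in 8 of 18 main pairs, and 5 of 12 main libraries correlated best with their own number. At 7 days they were -0.18 and -0.11.

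The number of peroxidases lower under FW was 3, 1 with the filter at a mean of 10 CPM, and 1 to 3 with 1 library left out. The number higher under SD was 8, and 4 to 8 with 1 left out. At 7 days DESeq2 called 3 higher and 5 lower, the block left 1 lower, and leaving out 1 library gave 0 to 1 higher and 0 to 3 lower. The cause was not tested. DESeq2 called 1360 genes at 7 days, and SD against control fell from 2291 to 1361 called genes without control replicate 3. Of the 5 models most like CCP1, 5 remained with RLE or total counts and 2 with a floor of 1 CPM. The 7-day values rest on 2 controls.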
